A study of Mus musculus with 6 samples.

Results

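The translation initiation factor genes of mouse blood progenitors were compared between cells with the leukaemia fusion MLL-ENL alone and cells with MLL-ENL together with LIN28B. The genes were all protein-coding entries of the deposited table whose symbol starts with Eif and a digit, and this name rule used no measured value. It found 57 genes among 55471 gene IDs. Another 11 entries had such a symbol but were annotated as processed pseudogenes or, once, as a long non-coding RNA, and were not members.

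RNA was sequenced from GMLPs (granulocyte-monocyte-lymphoid progenitors) of the bone marrow, a sort gate that kept Kit, Sca1 and CD48 and left out lineage markers and CD150. The ME group had 3 libraries from mice with the genotype MLL-ENL, and the L28BME group had 3 libraries from mice with LIN28B and MLL-ENL. All cells of both groups were cultured with doxycycline (DOX) for 3 days before RNA was isolated, so no group lacked the fusion, the culture or the drug. The age and sex of the animals, the promoters of the transgenes and which of them DOX controls are not stated in the sources used here. Whether the replicates were separate animals or cultures is likewise not stated, and the p-values then measure only how these samples spread, which may be technical.

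Initiation brings a ribosome to the start codon of an mRNA. eIF2 carries the initiator tRNA to the small ribosomal subunit, with eIF1, eIF1A, eIF3 and eIF5 helping the complex to scan for the start, while eIF4E binds the cap of the mRNA and eIF4G and the helicase eIF4A join it in eIF4F. The 4E-BPs, encoded by Eif4ebp1 to Eif4ebp3, hold eIF4E away from eIF4G unless mTOR phosphorylates them, and the eIF2 kinases reduce initiation under stress by phosphorylating eIF2. LIN28B binds RNA, is a mark of fetal blood progenitors, and blocks the maturation of let-7 microRNAs.

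The values were TPM, an abundance per transcript length scaled to a fixed total in each library. They can therefore be compared between genes, but the sequencing depth behind them is unknown, so single values carry no counting interval. In such bulk RNA, fewer cells of a type and less RNA per cell cannot be told apart. Each library had 13215 to 13288 genes at 1 TPM or more. Libraries of one group correlated at 0.987 to 0.988 (Pearson's r over log2(TPM + 1) of genes, which are not replicates), and libraries of different groups at 0.977 to 0.980. Mouse Lin28b was listed at 0 in all 3 libraries of ME and at 11.2 to 11.9 TPM in those of L28BME. Of the sort markers, Kit had means of 94.1 and 79.2 TPM in ME and L28BME and was not called. Cd48 had 297 and 228 TPM, while Ly6a, which encodes Sca1, had only 10.6 and 2.07 TPM. Both were called lower in L28BME (limma adjusted p = 8.9e-04 and 0.00376). Slamf1, which encodes CD150, had 0.120 and 0.634 TPM and was not tested. The T cell genes Cd3e and Cd8a and the macrophage gene C1qa were listed at 0 in all libraries. Markers of other cell types moved with the comparison as well. All 3 megakaryocyte genes read (Pf4, Itga2b and Gp9) rose, with summed levels of 79.2 to 82.4 TPM in ME and 118 to 136 TPM in L28BME. So did 3 of 4 lymphoid genes, and the 4 summed to 346 to 354 TPM in ME and 472 to 480.0 TPM in L28BME. That sum was nearly all Ighm, and Il7r, Ebf1 and Cd79a had group means of at most 2.89 TPM. Of 5 progenitor genes 4 fell (Cd34, Mpo, Elane and Myb) and 1 rose (Flt3, from a mean of 96.6 to 187 TPM). The sum of these 5, mostly Mpo, was 7212 to 7312 TPM in ME and 5629 to 6392 TPM in L28BME. Of 8 lineage genes that the sort removes, 1 (Itgam) fell, of 4 erythroid genes 1 rose, and of 3 macrophage genes 0 were called. The part of these cell types in the values that follow was not tested.

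Initiation factor mRNA was abundant and its total differed little between the groups. The 57 genes together held 1.46 to 1.48% of the TPM in ME and 1.48 to 1.505% of it in L28BME. Of the 57 genes, 54 passed the filter of at least 1 TPM in at least 3 of the 6 libraries and were tested with limma on log2(TPM + 1), and all fold changes on the log2 scale are on that scale. Genes were called at an adjusted p under 0.05 by the Benjamini-Hochberg method over 13348 genes. The 3 genes not tested were Eif4e1b, listed at 0 in every library, and Eif4a3l1 and Eif4ebp3, with group means of at most 0.716 TPM.

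Of the 54 tested genes, 8 rose in L28BME and 0 fell, and 46 were not called. The 8 were Eif4ebp1, Eif4a2, Eif4ebp2, Eif2d, Eif2s2, Eif1ax, Eif3h and Eif4b. The share called, 14.8%, was near the 14.9% of all tested genes that were called. The 8 calls were all in one direction, while 8.28% of all tested genes were called higher and 6.6% were called lower. When libraries were scaled to equal medians, the split was 5 higher and 1 lower, and that of all tested genes turned from 1105 higher and 881 lower to 916 higher and 1014 lower. At an unadjusted p under 0.05 there were 19 of the 54 genes, against 3954 of all 13348 tested genes. The groups did not overlap in 20 genes, 37.0% of those tested, against 36.7% of all tested genes. L28BME was the higher group in 15 of the 20, and in 2588 of the 4905 such genes among all tested. The median absolute log2 fold change was 0.069, against 0.139 over all tested genes, and the median signed log2 fold change was 0.02 against 0.0033. Only Eif4ebp1 had a mean that differed by over 1.5-fold among the 8, and the means of 5 of them differed by less than 15%.

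**Figure D1:**
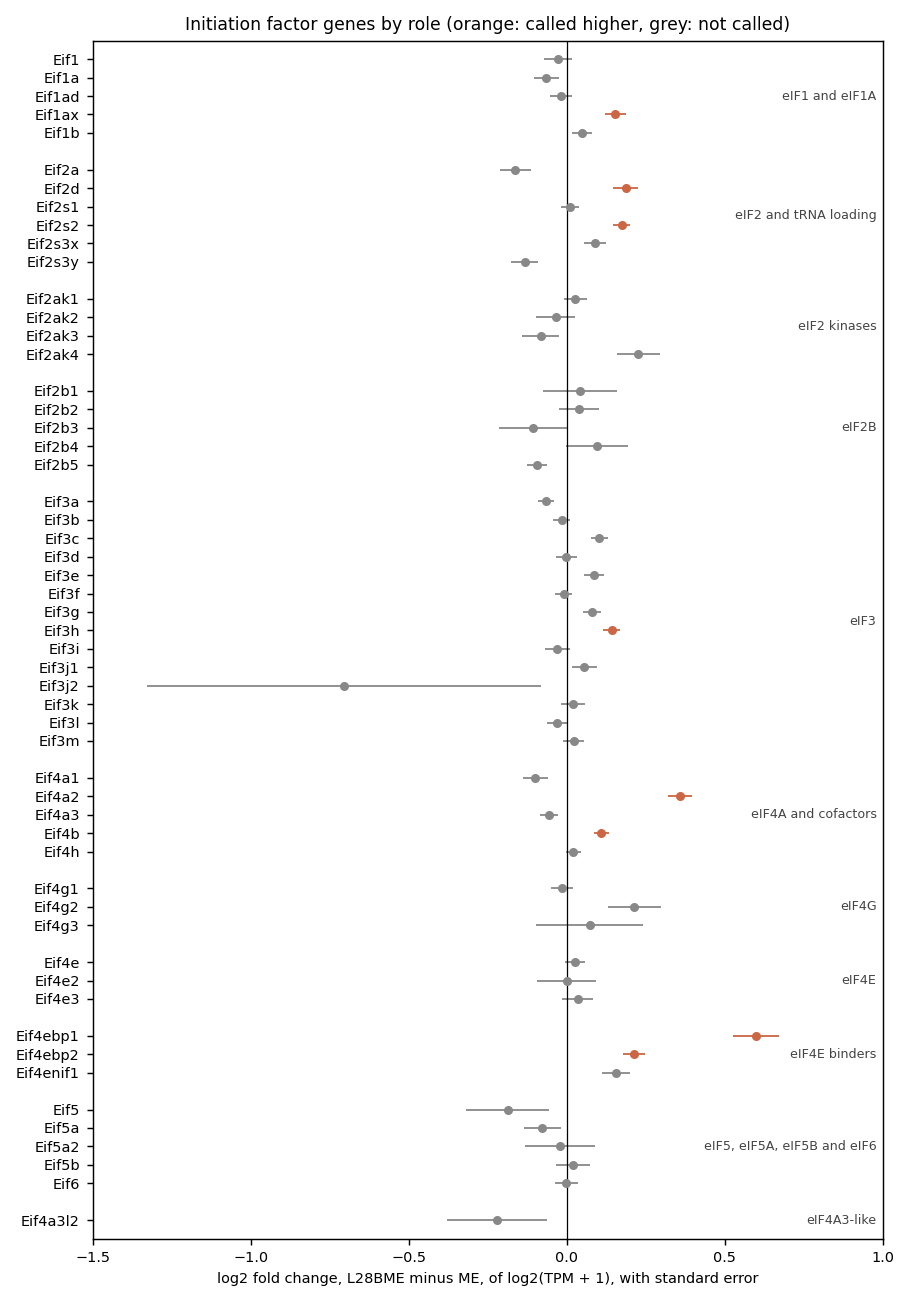
Log2 fold change (L28BME minus ME, of log2(TPM + 1), horizontal axis) with its standard error for the 54 tested genes, grouped by role. The 8 called genes (orange) lie between 0.11 and 0.60, and most others lie close to 0; the wide bar of Eif3j2 comes with a value of 0 in 1 library.

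Among the 8 called genes, the largest change was in a gene of a protein that binds eIF4E. Eif4ebp1 (chromosome 8, 27260329 to 27276674, plus strand, GRCm38), which encodes 4E-BP1, was at 67.1, 57.7 and 62.5 TPM in ME and at 93.6, 89.9 and 101.5 TPM in L28BME. Every L28BME library lay well above every ME library. Its mean rose 1.52-fold, from 62.4 ± 4.74 to 95.0 ± 5.91 TPM (SD, n = 3), or by 0.60 on the log2 scale (SE 0.072, limma adjusted p = 0.00421).

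Eif4ebp2 (chromosome 10, 61428491 to 61452661, minus strand), which encodes 4E-BP2, was the most abundant of the binders. It was at 160.2, 164.9 and 168.7 TPM in ME and at 196.6, 187.9 and 187.8 TPM in L28BME, and the groups did not overlap. The log2 fold change was 0.21 (SE 0.035, limma adjusted p = 0.0136), and the call was lost without ME replicate 2 (adjusted p = 0.0504). Over all alternatives its adjusted p ranged from 0.0111 to 0.0675. Eif4enif1, which encodes the eIF4E transporter 4E-T, had means of 128 and 142 TPM in ME and L28BME. Its groups did not overlap either, but it was not called (limma adjusted p = 0.0672). Without ME replicate 1 it was called higher (adjusted p = 0.0463, in a range of 0.0463 to 0.172 over all alternatives). The 4 genes of this role summed to 355 ± 6.41 TPM in ME and 429 ± 7.60 TPM in L28BME (SD, n = 3), 20.6% higher.

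The cap binders themselves were not called. Eif4e was at 92.4, 90.2 and 91.5 TPM in ME and at 94.3, 92.9 and 92.0 TPM in L28BME, with 1 L28BME library inside the range of ME (log2 fold change 0.03, SE 0.031, limma adjusted p = 0.622). The ratio of Eif4ebp1 plus Eif4ebp2 to Eif4e mRNA was 2.46, 2.47 and 2.53 in ME and 3.08, 2.99 and 3.14 in L28BME. All 3 ratios of L28BME exceeded all 3 of ME (exact two-sided permutation p = 0.1, the smallest that 3 against 3 samples allow). The ratio uses genes that were called above, so it describes their size and is no separate support. The most abundant cap binder was Eif4e2, which encodes the relative 4EHP and is known as a repressor of cap-dependent initiation. Its levels of 150.1, 151.6 and 143.0 TPM in ME lay inside the range of 132.0, 144.6 and 170.6 TPM in L28BME. Eif4e3 was the remaining tested gene of this role.

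**Figure D2:**
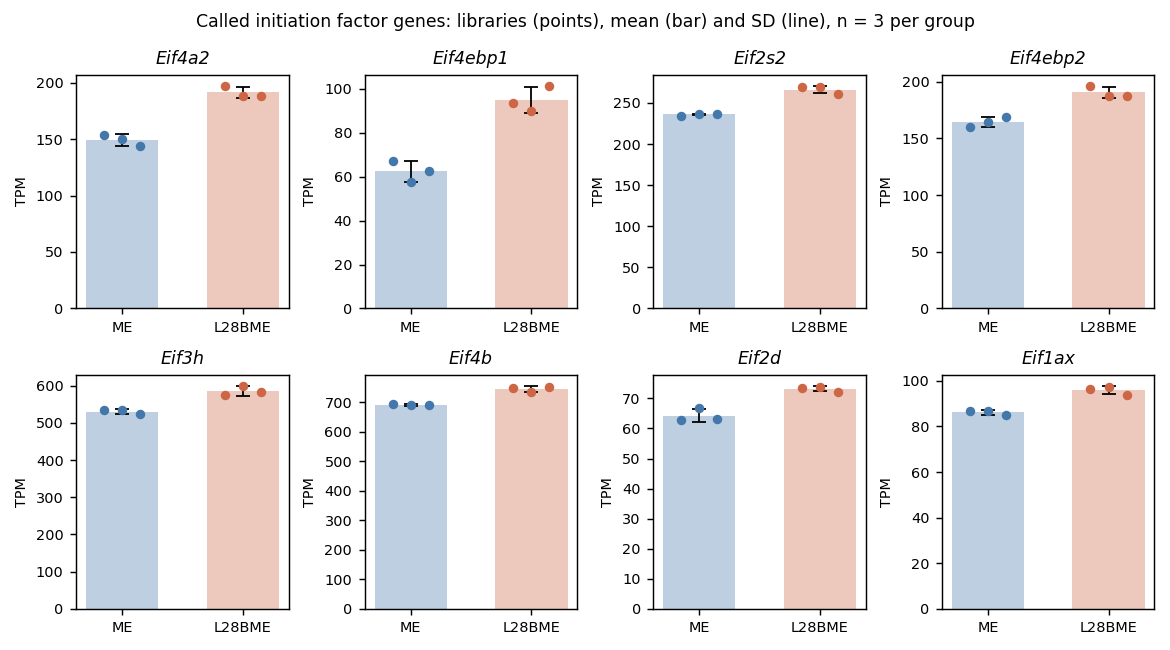
TPM of the 8 called genes in each library (points), with the mean (bar, from 0) and SD (line) of 3 libraries per group. In each panel all L28BME points lie above all ME points, by the widest relative margin in Eif4ebp1 and the narrowest in Eif4b.

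The eIF4A helicases unwind mRNA ahead of the ribosome, and 1 of their 3 genes was called (14.9% of all tested genes were). Eif4a2 (chromosome 16, 23107444 to 23114136, plus strand) was at 153.9, 149.8 and 143.7 TPM in ME and at 197.3, 188.5 and 188.6 TPM in L28BME. Its lowest L28BME library was well above its highest ME library, and it rose by 28.4% (log2 fold change 0.36, SE 0.039, limma adjusted p = 0.00311). Eif4a1, the most abundant gene of this role, had 1076, 1010.2 and 1052 TPM in ME and 935, 982 and 1015 TPM in L28BME. Here L28BME replicate 3 lay above the lowest ME library, and the gene was not called (log2 fold change -0.10, SE 0.041, limma adjusted p = 0.170). Eif4a2 made up 12.5, 12.9 and 12.01% of the TPM of this pair in ME and 17.4, 16.1 and 15.7% in L28BME (exact permutation p = 0.1, the smallest possible). The sum of the pair was 1195 TPM in ME and 1169 TPM in L28BME (exact permutation p = 0.5). Both the share and this sum leave out Eif4a-ps4, a near-identical copy of Eif4a1 given below, with a lower mean in L28BME. The sum therefore does not show whether the total of such mRNA differed.

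Reads of Eif4a1 can be shared with a near-identical copy. The processed pseudogene Eif4a-ps4 had 1217 of 1218 bases identical to the coding sequence of Eif4a1 and was listed at 645 and 601 TPM in ME and L28BME, so the level of either gene is uncertain. Summed, the 2 entries had 1691 ± 37.3 TPM in ME and 1578 ± 36.6 TPM in L28BME (SD, n = 3), without overlap between groups (log2 fold change -0.10, limma adjusted p = 0.0762). Eif4a2 was 77.5% identical to Eif4a1 in coding sequence, with no identical run beyond 20 bases. Several small nucleolar RNAs lie within Eif4a2 on the same strand, and Rfc4, with 104 and 111 TPM, overlaps it on the opposite strand.

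The promoters of these 2 helicase genes are shown because their share of the pair did not overlap between the groups. They are the 250 bases before each RefSeq start in GRCm38.p6, 5′ to 3′ on the strand of the gene, at chr11:69672424-69672673 (minus strand) for Eif4a1 and chr16:23107218-23107467 (plus strand) for Eif4a2. Capitals mark the E-box CACGTG, the palindrome bound by MYC and MAX and by related factors.
Eif4a1: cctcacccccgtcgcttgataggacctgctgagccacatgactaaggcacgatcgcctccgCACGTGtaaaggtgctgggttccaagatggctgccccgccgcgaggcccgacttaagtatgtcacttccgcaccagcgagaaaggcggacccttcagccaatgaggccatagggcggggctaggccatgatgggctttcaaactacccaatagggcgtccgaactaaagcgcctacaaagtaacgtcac
Eif4a2: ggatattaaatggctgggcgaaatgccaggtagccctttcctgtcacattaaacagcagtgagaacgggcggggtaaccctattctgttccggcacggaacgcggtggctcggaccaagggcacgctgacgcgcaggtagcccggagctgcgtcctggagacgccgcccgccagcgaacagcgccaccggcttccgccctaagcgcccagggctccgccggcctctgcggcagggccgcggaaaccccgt
The Eif4a1 promoter held 1 E-box, which began 189 bases before the start, and that of Eif4a2 held 0. Promoters of 300 bases, from 250 before to 50 after the start, were matched for 44 of the 57 genes, 43 of them tested. An E-box, which reads the same on both strands, was in 10 of these 43 (23.3%), against 12.2% of 8813 tested protein-coding genes and 8.09% of all 27025 genes with a promoter. It was in 0 of the 6 called genes with a matched promoter. A start of C followed by at least 4 pyrimidines within 5 bases of the annotated start, read on the gene's strand as in mRNAs with a terminal pyrimidine tract, was in 13 of the 43 (30.2%) against 23.8% of the tested protein-coding genes. These are matches of letters in fixed windows, not measured binding.

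Of the other genes that work with eIF4A, Eif4b encodes a cofactor that stimulates the helicase. Eif4b (chromosome 15, 102073773 to 102097173, plus strand) was at 693.5, 689.8 and 689.6 TPM in ME and at 750.1, 734.6 and 752.5 TPM in L28BME. The groups were separate because the libraries of each varied so little, with a coefficient of variation of 0.314% in ME. The change was the smallest of the 8, 0.11 on the log2 scale (SE 0.023, limma adjusted p = 0.0271), and leaving out any 1 library ended the call, with adjusted p from 0.0530 to 0.0874. Over all alternatives its adjusted p ranged from 0.0120 to 0.134. Eif4a3, whose product belongs to the exon junction complex of spliced mRNA, had means of 279.9 and 269 TPM in ME and L28BME without overlap but was not called (limma adjusted p = 0.238). Eif4h, a relative of Eif4b, was not called either. The group named eIF4A3-like held Eif4a3l2, at 0.606 to 1.48 TPM over the 6 libraries and not called, and Eif4a3l1.

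The eIF4G scaffolds were not called, and the call of their most abundant member depends on the scaling and on 1 library. Eif4g2 encodes DAP5, a scaffold that lacks the eIF4E-binding part of eIF4G. It was at 794, 862 and 831 TPM in ME and at 991, 849 and 1056 TPM in L28BME, so that L28BME replicate 2 lay inside the range of ME. The log2 fold change was 0.21 (SE 0.083, limma adjusted p = 0.150), and without L28BME replicate 2 it was 0.30 and called (adjusted p = 0.0267, in a range of 0.0267 to 0.301 over all alternatives). With quantile normalization and all 6 libraries it was 0.27 and also called (adjusted p = 0.0269). Eif4g1, the main scaffold, had means of 441 and 437 TPM in ME and L28BME, and Eif4g3 had 78.7 and 83.1 TPM. The coefficient of variation of Eif4g3 was 15.4% in ME and 18.8% in L28BME, far more than the difference of its means.

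Since LIN28B blocks let-7, the 3′ UTRs were read for the let-7 seed match, and Eif4g2 and Eif6 were the 2 tested genes that held it. The 9 let-7 family microRNAs in the RefSeq table share the seed GAGGUAG (bases 2 to 8, in capitals), as in these 2.
mmu-let-7a-5p: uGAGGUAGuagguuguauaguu
mmu-miR-98-5p: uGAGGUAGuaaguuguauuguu
Its match CTACCTC, searched on the transcript strand only, stood in annotated 3′ UTRs (GENCODE, GRCm38) of these 2 genes, both on the minus strand. The match in Eif4g2, at chr7:111072208-111072214, was in 2 annotated transcripts. That in Eif6, at chr2:155825376-155825382, was in only 1. The sites are shown as 30 bases of transcript sense with the match in capitals.
Eif4g2: ttgcctgtatttCTACCTCtagtaatgggc
Eif6: atacaccttcatCTACCTCccaggtttggg
The 2 genes were 3.70% of the 54 tested members with an annotated 3′ UTR, whereas 1197 of 10853 tested protein-coding genes (11.03%) held a match. None of the 8 called genes held one. Eif6, whose product keeps the ribosomal subunits apart, had means of 163.8 and 163.7 TPM in ME and L28BME.

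eIF2 and the proteins related to it by loading initiator tRNA held 2 of the 8 calls among 6 genes (14.9% of all tested genes were called), and 5 of the 6 had groups that did not overlap (36.7% of all tested genes). Eif2s2 (chromosome 2, 154871410 to 154892935, minus strand), which encodes the beta subunit of eIF2, was at 234.7, 237.0 and 236.2 TPM in ME and at 269.1, 268.9 and 260.8 TPM in L28BME. It was the most abundant gene of this role, with a wide gap between the groups relative to their spread. It rose by 12.8% (log2 fold change 0.17, SE 0.027, limma adjusted p = 0.0103). This call was kept without any 1 library. The entry Gm9892, at 134 and 149 TPM, shares 73.2% of the 50-base words of its coding sequence. The sum of both was 370.4 ± 6.27 TPM in ME and 415 ± 3.68 TPM in L28BME (SD, n = 3), and was called (limma adjusted p = 0.0108).

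Eif2d (chromosome 1, 131153181 to 131187658, plus strand) encodes a factor that can deliver tRNA to the ribosome without eIF2. It was at 62.8, 66.8 and 63.1 TPM in ME and at 73.6, 73.9 and 72.2 TPM in L28BME, again without overlap (log2 fold change 0.19, SE 0.040, limma adjusted p = 0.0293). The call was lost without any 1 library except ME replicate 2, with adjusted p from 0.0394 to 0.0916 over these fits and from 0.0238 to 0.0916 over all alternatives. Rassf5 overlaps Eif2d on the opposite strand and had 73.6 and 92.2 TPM. The kit marked strand, but whether the quantification used it is not stated, so the part of Rassf5 in this value was not tested.

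The remaining genes of this role were not called. Eif2s1, which encodes the alpha subunit that the eIF2 kinases phosphorylate, had means of 163.2 and 164.5 TPM in ME and L28BME. Eif2a, another tRNA-delivering factor, was at 157, 162 and 166 TPM in ME and at 139, 141 and 154 TPM in L28BME (log2 fold change -0.16, SE 0.050, limma adjusted p = 0.0836). It was called lower without L28BME replicate 3 (adjusted p = 0.0361, in a range of 0.0361 to 0.204 over all alternatives). Serp1 overlaps Eif2a on the opposite strand and had 225 and 203 TPM.

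The gamma subunit of eIF2 has a copy on each sex chromosome, and neither copy was called. The X-linked Eif2s3x was at 115, 117 and 117 TPM in ME and at 124, 127 and 119.7 TPM in L28BME (log2 fold change 0.09, SE 0.035, limma adjusted p = 0.157). The Y-linked Eif2s3y was at 76.8, 72.4 and 70.6 TPM in ME and at 67.6, 67.0 and 65.4 TPM in L28BME (log2 fold change -0.13, SE 0.044, limma adjusted p = 0.0993). For both copies the groups did not overlap, and the ratio of X to Y copy was 1.49 to 1.66 in ME and 1.83 to 1.90 in L28BME (exact permutation p = 0.1, the smallest possible). Their sum was 189.5 ± 1.83 TPM in ME and 190.5 ± 4.83 TPM in L28BME (SD, n = 3, exact permutation p = 0.8).

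Other sex-linked genes were read beside this ratio, because every library held RNA of both kinds. Xist, transcribed from the inactive X of females, had means of 47.5 ± 1.85 TPM in ME and 61.6 ± 1.43 TPM in L28BME (SD, n = 3, limma adjusted p = 0.00447). The Y-linked Ddx3y had 36.9 and 35.2 TPM, Kdm5d had 16.6 and 15.4 TPM and Uty had 13.9 and 10.3 TPM, and these 3 were not called. The part of a different mix of male and female cells in the values of Eif2s3x and Eif2s3y was not tested. The coding sequences of the 2 copies were 86.3% identical, with no identical run beyond 34 bases, while the entry Gm2223, at 35.8 and 36.3 TPM, shares 95.0% of the 50-base words of Eif2s3x.

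**Figure D3:**
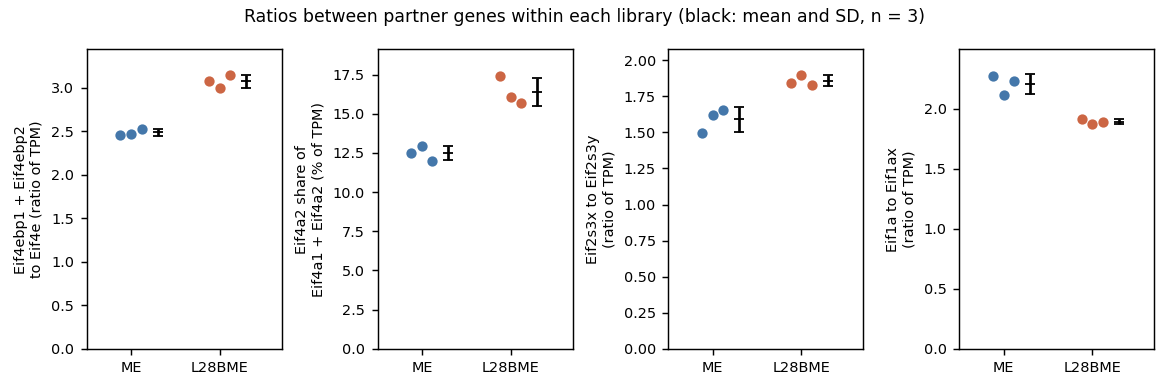
Ratios between partner mRNAs within each library (points), with mean and SD of 3 libraries per group in black. In all 4 panels the groups do not overlap; the ratios of 4E-BP mRNAs to Eif4e, the Eif4a2 share and the ratio of Eif2s3x to Eif2s3y are higher in L28BME, and the ratio of Eif1a to Eif1ax is lower.

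eIF1 and eIF1A guard the choice of start codon, and 1 of their 5 genes was called (14.9% of all tested genes were). Eif1ax (chromosome X, 159372178 to 159389928, plus strand) was at 86.7, 86.7 and 84.9 TPM in ME and at 96.6, 97.3 and 93.8 TPM in L28BME. All L28BME libraries were higher, by 0.15 on the log2 scale (SE 0.033, limma adjusted p = 0.0301), but the call was lost without any 1 library, with adjusted p from 0.0517 to 0.0939. Over all alternatives its adjusted p ranged from 0.0242 to 0.0939. Its autosomal copy Eif1a was at 197, 183 and 189 TPM in ME and at 185, 182 and 177 TPM in L28BME, with overlap and no call (limma adjusted p = 0.328). The ratio of Eif1a to Eif1ax was 2.11 to 2.27 in ME and 1.87 to 1.92 in L28BME (exact permutation p = 0.1, the smallest possible). Their sum was 276 ± 7.33 TPM and 277 ± 5.90 TPM (SD, n = 3, exact permutation p = 0.9), and the coding sequences were 85.5% identical.

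The paralogs Eif1 and Eif1b were not called. Eif1, the most abundant of this role, was at 370.0, 343 and 375 TPM in ME and at 359, 364 and 343 TPM in L28BME. Eif1b was at 89.8, 90.8 and 89.2 TPM in ME and at 93.4, 91.3 and 94.4 TPM in L28BME, separate by a margin of under 1 TPM (limma adjusted p = 0.369). Eif1ad, an eIF1A-domain gene, was not called.

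The stress kinases of eIF2 and its exchange factor eIF2B were not called. The kinases answer to different stresses, and Eif2ak1, the haem-regulated HRI, was the most abundant, with 51.2, 51.5 and 50.3 TPM in ME and 52.9, 51.5 and 51.5 TPM in L28BME. Eif2ak4, which encodes the amino-acid sensor GCN2, was at 32.1, 32.4 and 33.4 TPM in ME and at 37.1, 36.1 and 42.2 TPM in L28BME. Its groups did not overlap, with L28BME replicate 3 far above the others, and it was not called (log2 fold change 0.23, SE 0.068, limma adjusted p = 0.0802). The other kinases, Eif2ak2 (PKR) and Eif2ak3 (PERK), overlapped between the groups. eIF2B recharges eIF2 with GTP and is blocked by phosphorylated eIF2. Of its 5 subunit genes, 3 had a positive and 2 a negative fold change, and the most abundant, Eif2b5, was at 122, 123.2 and 127 TPM in ME and at 118, 115 and 116 TPM in L28BME (limma adjusted p = 0.113).

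eIF3, the large scaffold on the small ribosomal subunit, had 1 called gene of 14 (7.14%, against 14.9% of all tested genes). The genes of 12 core subunits, all but the loosely bound subunit j, had ME means between 265 and 535 TPM. Their absolute log2 fold changes lay between 0.0012 and 0.14, and the role as a whole summed to 5047 ± 31.0 TPM in ME and 5152 ± 27.96 TPM in L28BME (SD, n = 3), 2.07% higher. Eif3h (chromosome 15, 51786558 to 51865523, minus strand) was the 1 called subunit, at 534.3, 534.4 and 523.1 TPM in ME and at 574.8, 599.6 and 582.3 TPM in L28BME. It rose by 10.4% without overlap (log2 fold change 0.14, SE 0.027, limma adjusted p = 0.0213). The call was lost without any 1 library except L28BME replicate 1, with adjusted p from 0.0464 to 0.0745 over these fits and from 0.0117 to 0.0869 over all alternatives.

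The groups did not overlap in 5 of the 14 eIF3 genes (35.7%, near the 36.7% of all tested genes), and 4 of these 5 were uncalled. Eif3c was at 421, 427 and 437 TPM in ME and at 465, 457 and 459 TPM in L28BME and lay just outside the call (log2 fold change 0.10, SE 0.026, limma adjusted p = 0.0501). It was called under 4 of 18 alternatives, with adjusted p from 0.0222 to 0.167. Eif3e, the most abundant subunit in ME, had means of 535 and 568 TPM in ME and L28BME (limma adjusted p = 0.126), and Eif3g had 265 and 279 TPM (limma adjusted p = 0.129). Eif3a, the large subunit around which the complex assembles, had 388 and 371 TPM (limma adjusted p = 0.151). Eif3j1 and Eif3j2 were 99.2% identical in coding sequence, with an identical run of 784 bases, so reads cannot be assigned to either with certainty. Eif3j1 was at 42.8, 44.3 and 42.0 TPM in ME and at 44.2, 44.6 and 45.6 TPM in L28BME. Eif3j2 was at 3.59, 3.65 and 3.78 TPM in ME and at 0, 4.04 and 3.70 TPM in L28BME, and its fold change of -0.70 on the log2 scale rests on the value of 0 in L28BME replicate 1. Without that library it was 0.057.

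The late factors act when the subunits join and in elongation, and none of the 5 was called. Eif5a, whose product carries the hypusine modification and helps ribosomes past difficult peptide bonds, was the most abundant initiation factor gene. It was at 2396, 2549 and 2300.1 TPM in ME and at 2158, 2446 and 2268 TPM in L28BME, with overlap (log2 fold change -0.08, SE 0.058, limma adjusted p = 0.435). Its paralog Eif5a2 was at 3.68, 3.43 and 4.32 TPM in ME and at 3.36, 4.03 and 3.81 TPM in L28BME. Eif5, which triggers GTP hydrolysis by eIF2, was at 296, 206 and 220 TPM in ME and at 209.8, 210.0 and 206 TPM in L28BME, so that ME replicate 1 alone stood above the rest. The other 2 genes of this role, Eif5b and Eif6, were also not called.

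Other genes of translation and its control were counted from a list of 51, of which 50 were tested. In this list 8 genes rose and 1 fell, 16% and 2% of the 50, against 8.28% and 6.6% of all tested genes. The median log2 fold change of the list was 0.081, against 0.0033 over all tested genes. Of the 8 genes that rose, 5 belong to the 9 genes of eIF2 phosphatase and stress output given below. That group was chosen with earlier results of these data known, so the shares and the median of the list are no separate support. In the elongation group, Eef1g, a subunit of the exchange factor of eEF1A, rose from 1723 to 1871 TPM (limma adjusted p = 0.0285), while Eef1a1, the most abundant gene of the list, had 12174 and 12167 TPM. Eef2 had 2452 and 2713 TPM (limma adjusted p = 0.0937) and Rps6 had 2546 and 2662 TPM, both uncalled. Paip2, which encodes an inhibitor of poly(A)-binding protein, rose from 228 to 270.2 TPM (limma adjusted p = 0.0284). Mknk2, a kinase that phosphorylates eIF4E, rose from 124 to 143 TPM (limma adjusted p = 0.0455). The 1 gene that fell was Gspt2, a minor form of the release factor eRF3, from 7.02 to 4.28 TPM (limma adjusted p = 0.00661).

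The other 5 called genes of the list belonged to the 9 genes of the eIF2 phosphatase and stress output. Of these 9 genes, 5 rose and 0 fell (8.28% and 6.6% of all tested genes). This group was written with earlier results of these data known. Asns, asparagine synthetase, was at 139, 144 and 142 TPM in ME and at 249, 238 and 248 TPM in L28BME (log2 fold change 0.79, limma adjusted p = 1.57e-04). Trib3, a pseudokinase gene, rose from 20.8 ± 1.46 to 39.6 ± 2.78 TPM (SD, n = 3, limma adjusted p = 0.00136). Chac1, which encodes a glutathione-degrading enzyme, rose from 6.77 ± 0.162 to 16.7 ± 1.43 TPM (SD, n = 3, limma adjusted p = 6.81e-04). Sesn2, an inhibitor of mTORC1, rose from 22.03 to 30.6 TPM (limma adjusted p = 0.00581), and Ppp1r15b, the constitutive partner of the eIF2 phosphatase, from 90.8 to 100.6 TPM (limma adjusted p = 0.0322). Asns, Trib3, Chac1 and Sesn2, like Eif4ebp1, are known targets of the transcription factor ATF4, as are the uncalled Ddit3 and Ppp1r15a. The mRNA of ATF4 is translated more when eIF2 is phosphorylated.

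The remaining 4 genes of that group were not called. Atf4 mRNA itself was at 621, 636 and 641 TPM in ME and at 319, 692 and 308 TPM in L28BME, so that 2 L28BME libraries lay far below ME and 1 above it, and it was not called (limma adjusted p = 0.236). Asns in the same L28BME libraries varied by 2.35% (coefficient of variation). The part of Atf4 mRNA in the level of Asns was not tested. Ddit3, the stress factor CHOP, had means of 25.5 and 24.0 TPM in ME and L28BME, and Ppp1r15a, the inducible phosphatase partner, had 37.9 and 41.8 TPM (limma adjusted p = 0.404 and 0.106). Ppp1ca, a catalytic subunit, was the other uncalled gene. RNA levels do not show whether eIF2 or the 4E-BPs were phosphorylated.

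**Figure D4:**
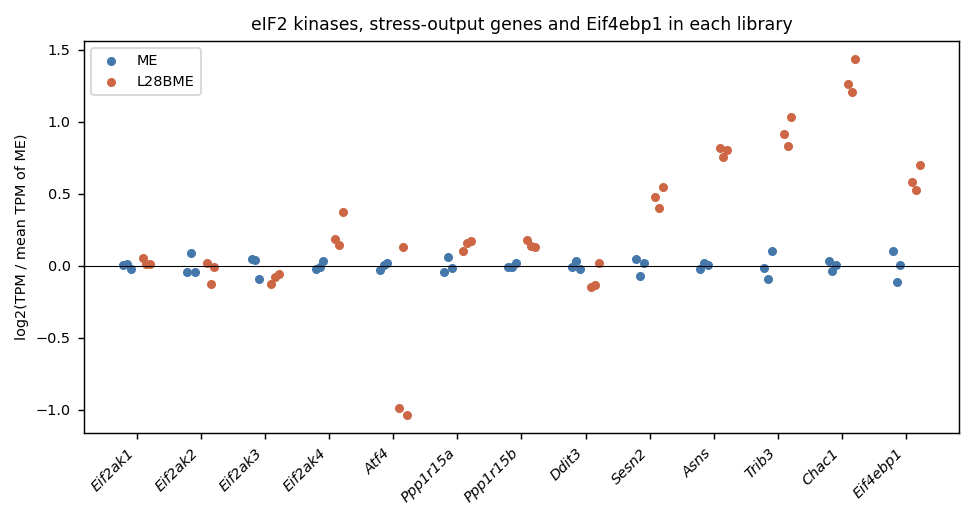
Log2 of the TPM in each library over the mean TPM of ME (no pseudocount) for the 4 eIF2 kinases, 8 of the 9 genes of the stress output group and Eif4ebp1. The L28BME points of Sesn2, Asns, Trib3, Chac1 and Eif4ebp1 stand clear above ME, those of the kinases other than Eif2ak4 stay near 0, and 2 of 3 Atf4 points lie near -1.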

How the data were processed

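RNA of 6 libraries of cultured mouse GMLPs, 3 ME and 3 L28BME, was isolated with a Norgen kit for single-cell RNA and prepared with TruSeq Stranded mRNA, per the labels' protocols. Per the submitters' processing notes, bcl2fastq, HISAT2, StringTie and DESeq2 were used with GRCm38. The sources used here do not give their versions, settings or use of strand. The deposited unit is TPM per gene and library, made by the authors; the 60496 entries cover 55471 gene IDs, and 0 of the 431 repeated IDs had values on more than one entry. TPM are not counts, so no count model was used and depth is unknown.

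Genes that reached 1 TPM in 3 or more libraries were compared on log2(TPM + 1) by limma 3.58.1 (R 4.3.3), two-sided and trended on intensity, with Benjamini-Hochberg adjustment over all 13348 genes. Ratios within a library were compared by an exact permutation test. Alternatives were pseudocounts of 0.1 and 0.5, no filter or a minimum of 5 TPM, median scaling, quantile normalization, removal of mitochondrial genes, no trend, a replicate block, the omission of each library, protein-coding genes only, and summing genes that overlap on the same strand. Summing near-identical copies was chosen after seeing the data. The members and gene lists were chosen with earlier results of these data known. The called members, the most abundant member of each role and members of near-identical pairs were named by rule, and other named genes were chosen after their values were seen. Positions, 3′ UTRs and coding sequences came from GENCODE for GRCm38, and microRNAs and promoters from RefSeq tables for GRCm38.p6. Promoters were not matched for 13 members. Identity was computed with Biopython 1.88, by global alignment for pairs of members and by local alignment for pseudogenes, which leaves out unaligned ends. Shared 50-base words are exact. Other tools were Python 3.11.15, numpy 2.4.6, pandas 2.3.3, matplotlib 3.10.9 and data.table (version 1.17.8).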

Additional observations from a re-analysis of the deposited data

How the results depend on the processing

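Eif4a2 and Eif4ebp1 were called higher under all 18 alternatives, and Eif2s2 under 17. The count of 8 genes called higher became 5 with median scaling, which also called 1 gene (Eif2a) lower, and 4 with no intensity trend. It became 10 with quantile normalization, which added Eif3c and Eif4g2, and 9, with Eif3c, with a minimum of 5 TPM, without mitochondrial genes and with protein-coding genes only. Leaving out each library in turn gave 4 to 5 genes called higher and 0 to 1 called lower. With the replicate block 2 genes were called higher. Over genes, the deviations of same-numbered libraries from their group means were nearly uncorrelated (-0.032, -0.074 and -0.052). Such correlations cannot show whether equal numbers share an animal or a culture, which is not stated. Over all genes, the counts of 1105 higher and 881 lower became 916 and 1014 with median scaling, which turned the balance, 548 and 400 with the replicate block, and 617 to 693 and 461 to 582 without any 1 library. Some uncalled genes changed sign. With median scaling the log2 fold change was -0.014 for Eif2s1 and -0.025 for Eif4e2, and with quantile normalization it was -0.0055 for Eif4e2, 0.017 for Eif1 and -0.0011 for Eif2ak1. Without any 1 library it ranged from -0.060 to 0.21 for Eif4g3, from -0.10 to 0.083 for Eif4e2, from -0.079 to 0.054 for Eif5a2, from -1.11 to 0.057 for Eif3j2, from -0.00068 to 0.024 for Eif2s1 and from -0.046 to 0.012 for Eif4g1. The cause of these changes was not tested. All 8 calls were kept without mitochondrial genes, whose share was 4.12 to 4.35% in ME and 4.49 to 4.85% in L28BME. With 3 libraries per group and unknown depth, calls under 15% in size rest on the small spread of the libraries.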

Other observations

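Among the entries with an Eif symbol that are not protein coding, 2 processed pseudogenes were called, both lower in L28BME. Eif5al3-ps is 97.2% identical to the coding sequence of Eif5a over 434 locally aligned columns. This pseudogene was at 22.1, 22.4 and 20.9 TPM in ME and at 8.73, 7.67 and 7.74 TPM in L28BME (log2 fold change -1.34, SE 0.072, limma adjusted p = 3.81e-04). Its level was below 1% of that of Eif5a, and the sum of both was 2437 ± 126 TPM in ME and 2299 ± 145 TPM in L28BME (SD, n = 3, exact permutation p = 0.3). Eif4a-ps4 had means of 645 ± 9.42 TPM in ME and 601 ± 9.05 TPM in L28BME (SD, n = 3, limma adjusted p = 0.0488), close to the threshold. Eif1-ps1, 95.8% identical to Eif1 over 336 locally aligned columns, had 58.4 and 58.7 TPM and was not called.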
